A study of Mus musculus with 48 samples.

Results

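Lymphatic endothelial cells (LECs) of mouse lymph nodes (LNs) were compared between mice that carried Eμ-*Myc* lymphoma and naive mice. The LEC libraries were chosen by their cell type label, which gave 12 array strips of 6 replicates, 3 from tumor-bearing and 3 from naive mice, out of 48 strips of 24 replicates in the series. The other 18 replicates came from blood endothelial cells (BECs), fibroblastic reticular cells (FRCs) and double negative stromal cells (DN), with 3 replicates for each cell type and state, and serve here as a comparison.

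LECs of the tumor group came from mice into which 200000 to 400000 Eμ-*Myc* lymphoma B cells had been injected intravenously. In this model the *Myc* oncogene is driven by an immunoglobulin heavy chain enhancer, and the injected cells carry the transgene. The lymphoma cells made up 4 to 10% of all lymphocytes in these LNs, so the LECs were taken at a low tumor load. LECs of the naive group came from untreated wild type mice. A later paper that used these arrays names C57BL/6N mice, of both sexes and 8 to 12 weeks of age, for its experiments. In both groups, cervical, axillary, brachial and inguinal LNs were digested, leukocytes were depleted with anti-CD45 beads, and LECs were sorted as live CD31+ gp38+ cells without CD45 or Ter119. Each array sample held 80 ng of RNA pooled from 4 to 6 independent sorts. The labels call the 3 replicates biological but do not say whether they shared animals, so p-values measure the spread between these pools.

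Lymphatic endothelium lines the sinuses through which lymph, antigen and migrating cells pass on their way through the LN. Its identity is set by the transcription factor *Prox1*, and its cells carry the hyaluronan receptor *Lyve1* and podoplanin (*Pdpn*, the gp38 of the sort gate). LECs grow through VEGFR3 signalling, guide dendritic cells and lymphocytes with chemokines such as CCL21, and are largely quiescent in the resting node. A cell that enters division switches on genes of DNA replication and then genes of mitosis, many of which share short promoter elements.

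All values are signals on the log2 scale after quantile normalisation, so that 1 unit is a doubling, and the 2 strips of a replicate were averaged. The 12 LEC strips held 947636 to 1019381 beads, or 20 to 21 beads for the median probe, which was within the range of the other strips. Unexpressed probes scattered around 4.99, and a value above 5.63 was taken as above background. The 6 LEC replicates lay on 1 slide, with tumor and naive replicates at different places of it, so that place and tumor state cannot be told apart. Differences were tested with limma over 13057 genes in 1 model of all 8 groups, and a gene was called at a Benjamini-Hochberg adjusted p below 0.05.

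The sorted cells carried the markers of lymphatic endothelium in both states. *Prox1* signal was 12.80, 12.61 and 12.77 in tumor LECs and 13.20, 13.23 and 13.37 in naive LECs, against 6.09 to 9.32 in BECs, 5.47 to 7.53 in FRCs and 5.36 to 7.56 in DN cells. All 3 tumor values lay below the 3 naive values, by 0.54 on average (SE 0.62, limma adjusted p = 0.97), and a model of the 6 LEC replicates alone gave a smaller SE of 0.12 and an adjusted p of 0.14. *Lyve1* signal was 14.34, 14.09 and 14.33 in tumor LECs and 14.42, 14.22 and 14.23 in naive LECs, and *Pdpn* signal was 14.19, 14.02 and 14.16 in tumor LECs and 14.13, 14.07 and 14.39 in naive LECs. For both genes the groups overlapped. All 9 markers of the lymphatic list were above background in every LEC replicate. Of these, 0 of 9 passed the test, where 0.797% of all genes were called higher and 0.138% lower.

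Markers of other cells were also present and differed between replicates. In such pooled RNA, fewer cells of a type and less RNA per cell cannot be told apart. All 15 blood endothelial markers were above background in at least 1 tumor and 1 naive LEC replicate, *Sema3g* among the tumor replicates only in replicate 2. Their mean signal was 9.65, 11.83 and 9.88 in tumor replicates 1, 2 and 3 and 10.42, 11.46 and 10.59 in naive replicates 1, 2 and 3. Replicates numbered 2 were thus the highest of both groups, for 15 of 15 genes among the tumor replicates and for 11 of 15 among the naive replicates. *Flt1*, which encodes VEGF receptor 1 and was singled out here after the values had been seen, had a signal of 11.06, 14.08 and 11.27 in tumor LECs against 12.14, 13.74 and 12.13 in naive LECs. B cell markers averaged 6.22, 6.94 and 6.33 in tumor LECs and 6.25, 6.37 and 6.21 in naive LECs. Of 13 B cell markers measured, 11 were above background in a tumor replicate and 8 in a naive replicate. The next genes were also singled out after the values had been seen. *Vpreb3*, a gene of the B cell list, was at 5.56, 8.93 and 6.53 in tumor LECs and 5.06, 5.42 and 5.12 in naive LECs. *Cd79b*, a component of the B cell receptor, was at 8.86, 9.90 and 9.10 in tumor LECs and at 9.05, 9.37 and 9.31 in naive LECs. *Ptprc*, which encodes CD45, was below background in all 6 LEC replicates, and of the tested markers 0 of 11 for B cells and 0 of 10 for leukocytes passed the test.

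**Figure D1:**
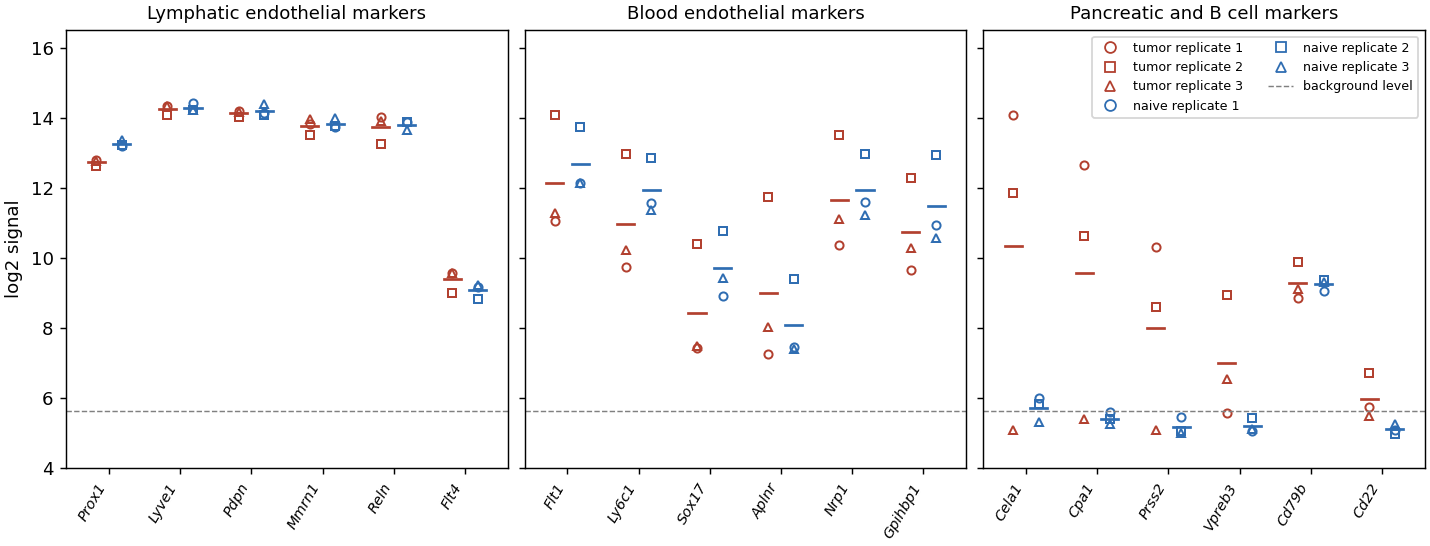
Mean and single replicate signals (log2) of lymphatic, blood endothelial and pancreatic or B cell marker genes in tumor LECs (left of each pair) and naive LECs (right). The lymphatic markers shown were above background in all 6 replicates, with *Prox1* lower in each tumor replicate than in any naive replicate, blood endothelial markers were highest in the replicates numbered 2, and the pancreatic genes shown were high in tumor replicates 1 and 2.

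Genes of cell division made up 8 of the 10 largest rises of tumor LECs without overlap to naive LECs, 2 chains of collagen IV rose, and the genes that fell included *Bmp2* and *Mmp13*. Of the 13057 genes, 104 were higher in tumor LECs (0.797%) and 18 were lower (0.138%). The 104 genes rose by 0.82 to 4.71 on the log2 scale with a median of 2.38, and the 18 genes fell by 0.66 to 1.68 with a median of -1.20, while the median over all genes was -0.00. The 3 tumor values did not overlap the 3 naive values for 103 of the 104 higher genes and for 18 of the 18 lower genes, whereas over all genes 11.3% lay wholly above and 9.29% wholly below. At an unadjusted p below 0.05 there were 665 higher and 490 lower genes. Tumor replicate 2 had the highest value for 95 of the 104 genes, and without it 10 higher and 1 lower gene were called. Leaving out naive replicate 1, which had the lowest naive value for 83 of the 104, gave 34 higher genes, and leaving out naive replicate 2 gave 65 higher and 5 lower genes. Without both replicates numbered 2, a setting chosen after seeing the data, 4 higher and 1 lower gene were called. With the replicate number as a block, 80 genes were higher and 5 were lower.

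**Figure D2:**
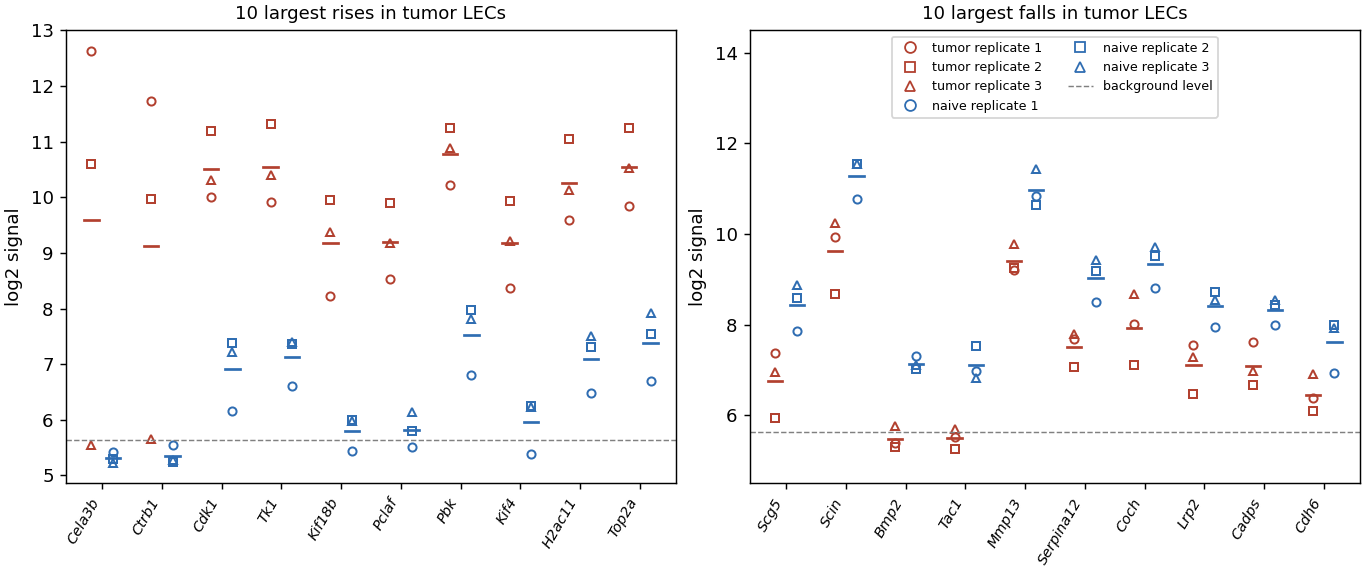
Signals (log2) of each replicate for the 10 largest rises and the 10 largest falls that passed the test without overlap between the groups, with tumor LECs left of naive LECs and the background level dashed. Every tumor value lay above every naive value for the rises and below for the falls, and *Cela3b* and *Ctrb1* were high in only 2 of the 3 tumor replicates.

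Genes of mitosis moved together. A list of 32 mitotic genes had 30 on the array, of which 19 were tested and 11 were not above background in any group mean. Of the 19 tested, 13 rose, 0 fell and 6 did not pass, against 0.797% of all genes that rose. The median change was 2.45 in LECs. *Cdk1*, the kinase that drives entry into mitosis, showed the largest rise of the list, with signals of 10.01, 11.20 and 10.32 in tumor LECs and 6.16, 7.39 and 7.21 in naive LECs. Every tumor value was above every naive value. This amounted to 10.51 ± 0.62 in tumor LECs and 6.92 ± 0.67 in naive LECs (SD, n = 3 each), a 12-fold difference with a log2 change of 3.59 (SE 0.39, limma adjusted p = 0.00018). It also passed without tumor replicate 2 (limma adjusted p = 0.0024).

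*Top2a*, the topoisomerase that untangles sister chromatids, was at 9.85, 11.25 and 10.53 in tumor LECs and at 6.70, 7.54 and 7.91 in naive LECs (log2 change 3.16, SE 0.56, limma adjusted p = 0.0069). *Kif11*, the kinesin that pushes the spindle poles apart, had values of 8.67, 9.86 and 9.55 in tumor LECs against 6.19, 6.59 and 6.82 in naive LECs (log2 change 2.83, SE 0.45, limma adjusted p = 0.0043). Neither gene overlapped between the groups, and replicate 2 was the highest of the tumor values in both. Without that replicate the limma adjusted p was 0.083 for *Top2a* and 0.058 for *Kif11*.

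The promoters of these 3 genes are shown because they carry the sequence elements through which mitotic genes are known to be regulated together. The 110 bases before the RefSeq transcription start are given (GRCm38.p6), read 5′ to 3′ on the strand of the gene. Capitals mark the cell cycle homology element TTTGAA or its reverse complement TTCAAA, and the CCAAT box or its reverse complement ATTGG.
*Cdk1* (chr10:69352913-69353022, minus strand): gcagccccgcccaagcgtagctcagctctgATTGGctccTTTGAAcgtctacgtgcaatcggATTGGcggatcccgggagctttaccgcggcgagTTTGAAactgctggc
*Top2a* (chr11:99024190-99024299, minus strand): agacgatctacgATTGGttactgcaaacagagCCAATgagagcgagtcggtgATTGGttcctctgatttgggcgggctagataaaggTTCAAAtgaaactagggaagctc
*Kif11* (chr19:37376272-37376381, plus strand): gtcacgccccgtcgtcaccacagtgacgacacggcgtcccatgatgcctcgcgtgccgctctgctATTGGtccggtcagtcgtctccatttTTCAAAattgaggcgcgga

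With the start site as position 0, the element TTTGAA began at -71 and -15 in *Cdk1*, and its complement began at -23 in *Top2a* and at -19 in *Kif11*. CCAAT letters on either strand stood upstream of the element nearest to the start site in all 3 genes, at -80 and -48 in *Cdk1*, at -98, -78 and -58 in *Top2a* and at -45 in *Kif11*. Over the window of 250 bases before to 50 bases after the start, 87 of the 104 higher genes and 14 of the 18 lower genes had an entry. TTTGAA on either strand was found in 35 of the 87 (40.2%), against 20.2% of all 27025 genes with a window and 1 of the 14 lower genes. CCAAT on either strand was found in 54 of the 87 (62.1%), against 41.1% of all genes and 4 of the 14. At least 1 of 4 E2F-type letter runs (the run TTCCCGC, the run TTCGCGC, the run TTGCCGC or the run TTGGCGC, on both strands) was found in 35 of the 87 (40.2%), against 10.9% of all genes and 4 of the 14. These counts describe letters in a window, not sites bound in LECs. The 27025 genes were not limited to the 13057 genes tested here, so the called genes and their comparison set also differ in expression.

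Further mitotic genes were separate between the groups. *Prc1*, which bundles microtubules of the central spindle, was at 12.03, 13.25 and 12.46 in tumor LECs and at 9.27, 10.11 and 10.40 in naive LECs (log2 change 2.65, SE 0.39, limma adjusted p = 0.0018). *Nusap1*, a spindle protein, rose by 2.78 with a limma adjusted p of 0.0047. The mitotic kinesins *Kif18b* and *Kif4* rose by 3.38 and 3.21, and the mitotic kinase *Pbk* rose by 3.25. *Kif18b* had tumor values of 8.23, 9.95 and 9.38 and naive values of 5.44, 6.00 and 5.97, so that naive replicate 1 was below background. *Kif4* had tumor values of 8.37, 9.94 and 9.21 against naive values of 5.39, 6.25 and 6.24. In both kinesins, tumor replicate 2 was the highest and naive replicate 1 the lowest. Of the division genes named by rule, *Cdk1*, *Tk1* and *Prc1* passed without tumor replicate 2, and the others had limma adjusted p-values of 0.051 to 0.12.

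Genes of DNA replication and nucleotide synthesis rose to a smaller extent. Of 34 listed genes 32 were tested, 12 rose, against 0.797% of all genes, and 0 fell. The median change was 1.26. All 32 changes were above 0. *Tk1*, the thymidine kinase of S phase, was at 9.92, 11.32 and 10.41 in tumor LECs and at 6.61, 7.36 and 7.41 in naive LECs (log2 change 3.42, SE 0.48, limma adjusted p = 0.0013). *Uhrf1*, which maintains DNA methylation at the replication fork, was at 11.86, 12.61 and 11.57 in tumor LECs and at 9.48, 9.74 and 9.94 in naive LECs (log2 change 2.29, SE 0.40, limma adjusted p = 0.0065). *Mcm5*, a subunit of the replicative helicase, was at 12.15, 12.97 and 12.31 in tumor LECs against 10.42, 10.52 and 10.92 in naive LECs (log2 change 1.86, SE 0.34, limma adjusted p = 0.0073). The groups were separate for all 3 genes.

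*Chaf1a*, the large subunit of the chromatin assembly factor, rose by 2.38 (SE 0.46, limma adjusted p = 0.012). *Pclaf*, which binds the sliding clamp PCNA, had tumor values of 8.53, 9.90 and 9.18 and naive values of 5.52, 5.80 and 6.15 and rose by 3.38. Replication-dependent histone H2A genes also stood among the higher genes, with *H2ac11* at 9.60, 11.05 and 10.13 in tumor LECs and 6.48, 7.31 and 7.52 in naive LECs (log2 change 3.16, SE 0.60, limma adjusted p = 0.010). H2A genes are near-identical copies, and a probe may read several of them. In all, 25 of the 104 higher genes were on the mitosis or replication list.

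Transcription factors of the cell cycle were looked up after the values had been seen. *Foxm1*, an activator of mitotic genes, was at 8.45, 9.52 and 8.94 in tumor LECs and at 6.65, 6.82 and 6.77 in naive LECs, a log2 change of 2.23. *Mybl2*, which acts with it, was at 8.50, 10.08 and 8.79 in tumor LECs and at 6.06, 6.50 and 6.42 in naive LECs, a log2 change of 2.79. *E2f1*, an activator of S phase genes, was at 10.29, 11.21 and 10.37 in tumor LECs and at 8.40, 8.92 and 8.54 in naive LECs, a log2 change of 2.00. None of the 3 overlapped between the groups. *Etv4*, an ETS family factor, was at 7.77, 9.06 and 7.61 in tumor LECs and below background at 5.46, 5.38 and 5.20 in naive LECs, at least 5.72-fold (limma adjusted p = 0.0058). Where a naive mean was built from values below background, the fold is such a bound, in which the background level stands in for those values.

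The rise of division genes was not particular to LECs. Of the 104 genes, 88 were also higher in tumor BECs (84.6% of the LEC genes and 18.6% of the 472 BEC genes), 86 in tumor FRCs (82.7% and 10.2% of 840) and 76 in tumor DN cells (73.1% and 12.1% of 627). For comparison, 3.61% of all genes were higher in BECs, 6.43% in FRCs and 4.8% in DN cells. The LEC genes changed by a median of 2.73 in BECs, 2.62 in FRCs and 2.39 in DN cells. The mitosis list had medians of 2.45 in LECs, 3.17 in BECs, 3.08 in FRCs and 2.72 in DN cells, and the replication list had medians of 1.26, 1.71, 2.00 and 1.57 in the same order. When the LEC change was tested against the mean change of the other 3 cell types, none of the named division genes passed, and *Cdk1* differed by 0.04 (SE 0.46, limma adjusted p = 0.99). An SE of this size leaves room for a difference, and the changes cannot be called equal. No call of higher was made in any other cell type for 13 of the 104 genes, among these the pancreatic genes *Cela3b* and *Ctrb1*. A gene that is not called may still change, and 6 of the 104, among these *Cela3b* and *Ctrb1*, were below background in every group mean of the other cell types. Nothing is read from this count about LECs alone.

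**Figure D3:**
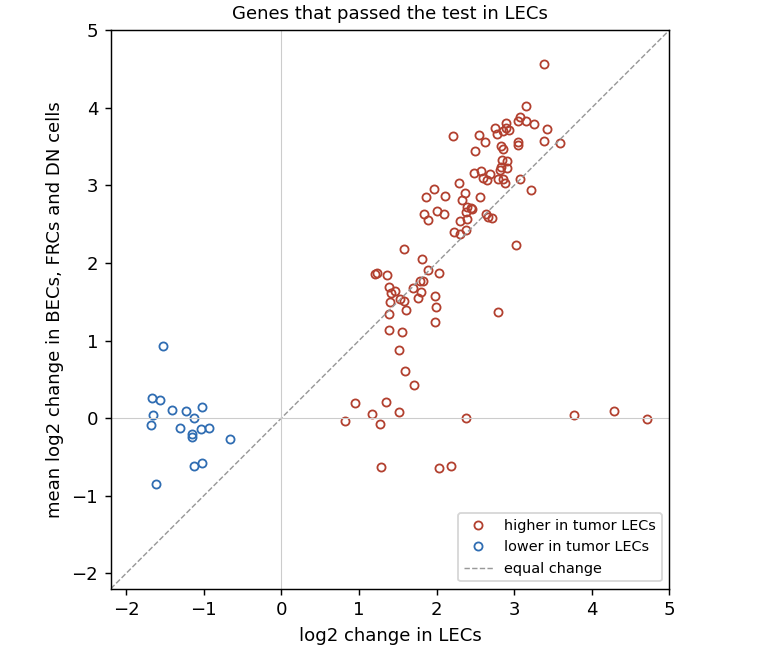
Log2 change (tumor minus naive) of the 122 called genes in LECs on the x axis and the mean log2 change of BECs, FRCs and DN cells on the y axis, with the line of equal change dashed. Most higher genes lay near the line, while most lower genes lay near 0 on the y axis. For 6 of the 18 lower and 6 of the 104 higher genes all group means of the other cell types were below background, where a value near 0 was fixed.

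B cell markers had a median change of 0.03 in LECs, 1.71 in BECs, 0.50 in FRCs and 1.83 in DN cells, and leukocyte markers had a median change of 0.49, 1.36, 1.36 and 2.19 in the same order. Single markers moved more than these medians, and 3 are given here after their values were seen. *Mzb1*, a gene of B-lineage and plasma cells on the plasma cell list, was at 7.70, 10.39 and 9.21 in tumor LECs and at 5.84, 6.29 and 5.75 in naive LECs (log2 change 3.14, limma adjusted p = 0.064). *Cd52*, a leukocyte surface gene, was at 7.84, 9.58 and 8.87 in tumor LECs and at 7.61, 7.62 and 6.60 in naive LECs. *Coro1a*, an actin regulator of leukocytes, was at 9.72, 10.85 and 10.15 in tumor LECs and at 9.34, 9.56 and 9.11 in naive LECs. The groups did not overlap for these 3 genes, none of which passed the test, and tumor replicate 2 was the highest. Other members of these lists went the other way. *Srgn*, also a leukocyte marker, was lower at 10.84, 9.57 and 10.80 in tumor LECs against 11.45, 11.17 and 11.64 in naive LECs. Changes were above 0 for 6 of 11 tested B cell markers, 8 of 10 leukocyte markers and 2 of 5 plasma cell markers. In tumor LECs, 8 of 13 B cell markers were highest in replicate 2, as were 95 of the 104 higher genes. The part of other cells in the rise of division genes was not tested.

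Besides division genes, collagen IV of the basement membrane rose. Of 23 tested basement membrane genes 2 rose, against 0.797% of all genes, 0 fell and the median change was 0.20. *Col4a2* was at 14.06, 15.24 and 14.66 in tumor LECs and at 13.35, 13.78 and 13.36 in naive LECs (log2 change 1.16, SE 0.24, limma adjusted p = 0.019). Its partner chain *Col4a1* was at 14.93, 15.76 and 15.32 in tumor LECs and at 14.26, 14.66 and 14.26 in naive LECs (log2 change 0.94, SE 0.22, limma adjusted p = 0.039). For both chains the groups did not overlap and the replicates numbered 2 were the highest of their group, as with the blood endothelial markers, whose part in this result was not tested. Without tumor replicate 2 the limma adjusted p was 0.17 for *Col4a2* and 0.30 for *Col4a1*, and with the replicate block *Col4a1* had an adjusted p of 0.056. A LEC change beyond the other cell types was not shown, with a limma adjusted p of 0.29 for *Col4a2* and 0.45 for *Col4a1*.

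The 10 largest falls of tumor LECs were of genes with varied roles, and 2 of them stood on a list. *Bmp2*, a ligand of the bone morphogenetic protein family, was at 5.39, 5.30 and 5.76 in tumor LECs and at 7.30, 7.03 and 7.10 in naive LECs (log2 change -1.66, SE 0.19, limma adjusted p = 0.00018), and 2 of its 3 tumor values were below background. It was 1 of 29 tested genes of TGF-beta and BMP signalling and the only one called, where 0.138% of all genes were called lower. *Mmp13*, the collagenase 3, was at 9.21, 9.24 and 9.78 in tumor LECs and at 10.85, 10.64 and 11.45 in naive LECs (log2 change -1.57, SE 0.29, limma adjusted p = 0.0093), the only one called of 26 metallopeptidases and inhibitors. *Tac1*, the precursor of substance P, was at 5.52, 5.25 and 5.70 in tumor LECs and at 6.97, 7.54 and 6.81 in naive LECs (log2 change -1.62, SE 0.30, limma adjusted p = 0.0085), again with 2 of 3 tumor values below background, so that both of these changes may be understated. The groups did not overlap for these 3 genes. The fall of *Tac1* was not particular to LECs. Its log2 change was -1.33 in FRCs (limma adjusted p = 0.0076), from a naive mean of 10.48, and -1.04 in DN cells (limma adjusted p = 0.038). In BECs its means were below background. Without tumor replicate 2 the limma adjusted p was 0.0024 for *Bmp2* and 0.085 for both *Mmp13* and *Tac1*, and *Bmp2* was the only lower gene still called.

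*Scg5*, a chaperone of the prohormone convertase 2, was at 7.37, 5.93 and 6.96 in tumor LECs and at 7.85, 8.59 and 8.87 in naive LECs, a log2 change of -1.68 (SE 0.29). *Cadps*, which acts in the release of dense core vesicles, was at 7.62, 6.67 and 6.98 in tumor LECs and at 7.99, 8.43 and 8.55 in naive LECs, a log2 change of -1.24 (SE 0.22). Both showed the lowest tumor value in replicate 2. Limma gave adjusted p-values of 0.0063 for *Scg5* and 0.0069 for *Cadps*, and with the replicate block these were 0.052 and 0.056. In a limma model of the 6 LEC replicates alone they were 0.15 and 0.12. Serpin *Serpina12* (vaspin, an adipokine), actin-severing *Scin*, *Coch* (cochlin, a secreted protein), the endocytic receptor *Lrp2* (megalin) and the cadherin *Cdh6* fell by 1.53, 1.67, 1.41, 1.31 and 1.16. Their limma adjusted p-values lay between 0.012 and 0.049 and between 0.062 and 0.16 with the block. In the 6 LEC replicates alone they lay between 0.075 and 0.21. The other cell types could show few of these falls. Only 6 of the 18 lower genes had a naive mean above background in BECs, 9 in FRCs and 8 in DN cells, and 6 of the 18, among these *Bmp2*, *Scg5*, *Cadps* and *Lrp2*, were below background in every group mean of the other cell types. Of the 18, 1 was called lower in BECs, 1 in FRCs and 3 in DN cells, where 1.49%, 4.14% and 2.63% of all genes were lower, and nothing is read from these counts about LECs alone. The call in FRCs was *Tac1*, and those in DN cells included *Tac1* and *Cdh6* (log2 change of *Cdh6* -0.89, limma adjusted p = 0.044).

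**Figure D4:**
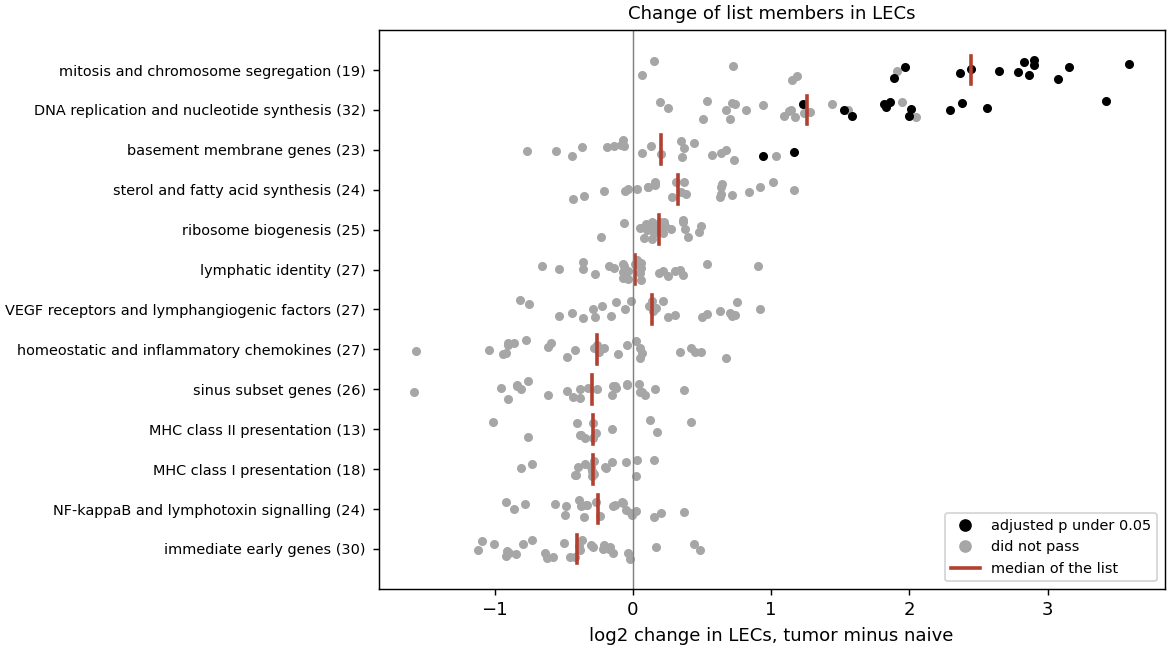
Log2 change (tumor minus naive LECs) of the members of 13 gene lists, with members at a limma adjusted p below 0.05 in black and the list median as a red bar. The mitosis and replication lists were shifted to medians of 2.45 and 1.26, and the other 11 lists had medians between -0.40 and 0.33.

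A direct test of the LEC change against the mean change of BECs, FRCs and DN cells called 5 genes above (0.0383% of all genes) and 3 below (0.023%). For *Bmp2*, *Chrnb4* and *Myo18b* all 6 group means of the other cell types were below background, so these genes entered the test through LECs and their small change elsewhere was fixed by the lack of signal. *Adamtsl2*, a secreted ADAMTS-like protein without a peptidase domain, was at 7.17, 8.48 and 8.55 in tumor LECs and at 5.91, 5.72 and 6.01 in naive LECs, a log2 change of 2.19. The change was -0.79 in BECs, -0.94 in FRCs and -0.10 in DN cells, and the difference was 2.80 (SE 0.35, limma adjusted p = 0.00080). Its relative *Adamtsl1* was at 8.78, 8.74 and 7.89 in tumor LECs and at 6.62, 5.97 and 6.72 in naive LECs, and its change exceeded that of the other cell types by 2.68 (SE 0.44, limma adjusted p = 0.013). With the replicate block the rise of *Adamtsl1* in LECs did not pass (limma adjusted p = 0.053, against 0.0097 without the block). Both genes were higher in each tumor replicate than in any naive replicate, and replicate 3 was the highest tumor value of *Adamtsl2* but the lowest of *Adamtsl1*.

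*Flrt1*, a leucine-rich repeat transmembrane protein, was at 7.53, 8.06 and 7.83 in tumor LECs and at 6.55, 6.43 and 6.60 in naive LECs, a log2 change of 1.28 against 0.09 in BECs, -1.35 in FRCs and -0.61 in DN cells. Its difference was 1.91 (SE 0.24, limma adjusted p = 0.00080). *Gap43*, a protein of neuronal growth cones, was at 6.39, 6.82 and 6.75 in tumor LECs and below background at 4.90, 5.08 and 5.41 in naive LECs, at least 2.03-fold, and its difference was 1.44 (SE 0.21, limma adjusted p = 0.0060). *Myo18b*, an unconventional myosin of muscle, was at 6.76, 7.43 and 6.83 in tumor LECs and at 5.55, 5.65 and 5.99 in naive LECs, with a difference of 1.35 (SE 0.21, limma adjusted p = 0.0076). The levels of *Gap43* and *Myo18b* were low, less than 2 above the background level.

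Below the other cell types stood *Bmp2*, *Serpina12* and *Chrnb4*. *Bmp2* fell in LECs and the fitted difference was -1.69 (SE 0.21, limma adjusted p = 0.00080), but its means were below background at 4.79 to 5.36 in the other cell types, which could not show a fall. *Serpina12* was at 7.67, 7.06 and 7.80 in tumor LECs and at 8.51, 9.17 and 9.43 in naive LECs, but it was higher by 2.13 in tumor FRCs, at means of 7.82 in tumor FRCs and 5.69 in naive FRCs, and was below background in both states of BECs. The difference was -2.46 (SE 0.41, limma adjusted p = 0.013). *Chrnb4*, a subunit of the nicotinic acetylcholine receptor, was at 6.12, 5.87 and 6.33 in tumor LECs and at 7.39, 7.01 and 7.01 in naive LECs, a difference of -1.16 (SE 0.19, limma adjusted p = 0.012). With the replicate block, limma called 4 of these 8 differences: *Adamtsl2* (adjusted p = 0.034), *Flrt1* (0.034), *Gap43* (0.034) and *Bmp2* (0.027). Without tumor replicate 2, *Adamtsl1*, *Serpina12* and *Chrnb4* did not pass, with limma adjusted p-values of 0.076 to 0.080.

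**Figure D5:**
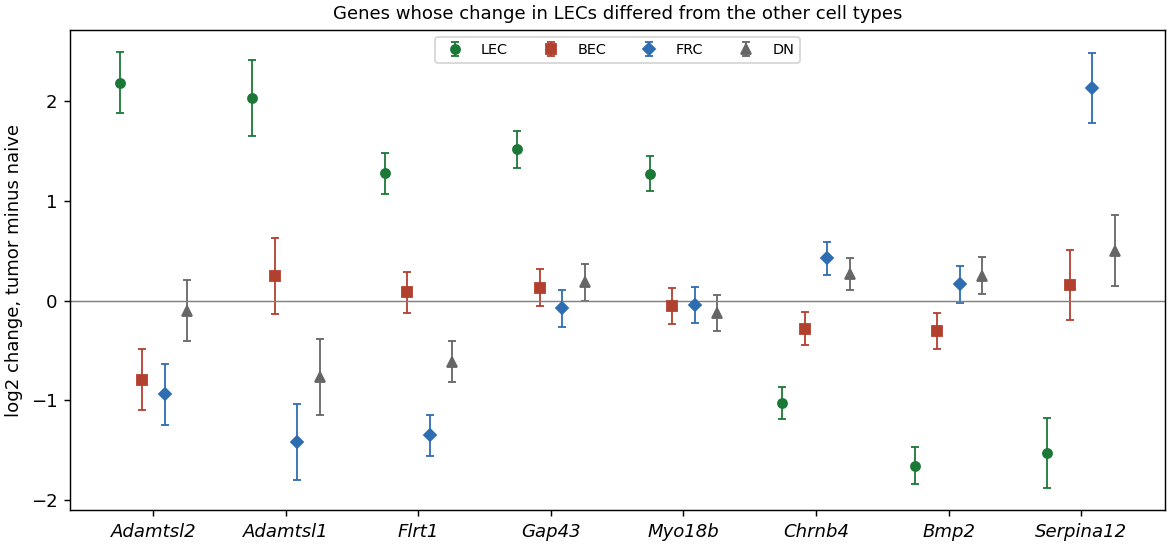
Log2 change (tumor minus naive, with SE) of the 8 genes whose LEC change differed from the mean of the other cell types, in LECs, BECs, FRCs and DN cells. The first 5 genes, *Adamtsl2*, *Adamtsl1*, *Flrt1*, *Gap43* and *Myo18b*, rose in LECs, and *Bmp2*, *Serpina12* and *Chrnb4* fell.

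Several genes of pancreatic acinar cells were high in part of the tumor LEC replicates. *Cela3b*, an elastase, was at 12.63, 10.60 and 5.55 in tumor LECs and at 5.41, 5.30 and 5.23 in naive LECs (log2 change of the means 4.28, SE 0.97, limma adjusted p = 0.036). *Ctrb1*, a chymotrypsinogen, was at 11.74, 9.97 and 5.65 in tumor LECs and at 5.56, 5.23 and 5.27 in naive LECs (log2 change of the means 3.77, SE 0.84, limma adjusted p = 0.032). *Cpa1*, a carboxypeptidase chosen after the values had been seen, followed the same order with 12.65, 10.64 and 5.41 in tumor LECs and 5.59, 5.40 and 5.26 in naive LECs and did not pass the test. Tumor replicates 1 and 2 carried these signals and replicate 3, near or below the background level, did not, so no fold is given for the group. *Cela1* and *Prss2* of the same marker list had the same order, at 14.09, 11.85 and 5.08 and at 10.31, 8.61 and 5.09 in tumor LECs. In naive LECs they were at 5.99, 5.82 and 5.32 and at 5.45, 5.06 and 5.00, and neither passed the test. The amylase gene *Amy2a5* of this list was at 15.97, 15.94 and 15.89 in tumor LECs and 15.39, 15.95 and 15.92 in naive LECs. These values lay near the top of the scale (highest deposited value 16.15), where a rise could hardly show. Without tumor replicate 1 the limma adjusted p of *Cela3b* was 0.10, and without tumor replicate 2 it was 0.25. With the replicate block the limma adjusted p was 0.060 for *Cela3b* and 0.054 for *Ctrb1*. All group means of *Cela3b* and *Ctrb1* in the other cell types were below background, at 4.89 to 5.43. Both genes thus entered the test through tumor LECs, and their changes of -0.12 to 0.33 elsewhere were fixed by the lack of signal. The source of the signal in tumor LECs was not tested. Without tumor replicates 1 and 2, a setting chosen after seeing the data that leaves 1 tumor replicate, 6 genes were higher and 1 was lower.

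In lists of functions for which LN LECs are known, 0 genes passed the test. Over all genes 0.797% were called higher and 0.138% lower, so 0 calls in lists of this size were near the overall share. The genes of lymphatic identity (27 tested), of valves and collecting vessels (23), of VEGF receptors and lymphangiogenic factors (27) and of chemokines (27) had medians of 0.01, 0.02, 0.14 and -0.26. In the list of sinus subset genes (26 tested, median -0.29), *Cd209b*, a C-type lectin of sinus-lining cells, was at 7.05, 5.95 and 6.61 in tumor LECs and at 8.92, 8.35 and 7.08 in naive LECs (log2 change -1.58, SE 0.39, limma adjusted p = 0.061), and it passed with the replicate block (limma adjusted p = 0.043). *Clec1b*, the receptor CLEC-2 that binds podoplanin, was at 7.42, 6.40 and 7.21 in tumor LECs and at 7.96, 8.02 and 7.89 in naive LECs (log2 change -0.95, limma adjusted p = 0.14). The chemokine *Ccl21a* averaged 14.40 ± 0.68 in tumor LECs and 14.06 ± 0.26 in naive LECs (SD, n = 3 each), and the granulocyte factor *Csf3* averaged 6.30 ± 0.46 in tumor LECs and 7.87 ± 0.67 in naive LECs (SD, n = 3 each; limma adjusted p = 0.23).

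Genes of antigen presentation and of inflammatory signalling also held no call, again near the share over all genes. Median changes were -0.29 for MHC class II (13 tested), -0.29 for MHC class I (18), -0.02 for the interferon response (33) and -0.25 for NF-kappaB and lymphotoxin signalling (24). Immediate early genes, which respond to stimuli and to cell isolation, had a median of -0.40 over 30 tested, and 27 of the 30 changes were below 0. The median was -0.46 in BECs, -0.53 in FRCs and -0.56 in DN cells. *Nr4a2*, an orphan nuclear receptor, was at 9.33, 9.03 and 9.61 in tumor LECs and at 10.64, 10.52 and 10.18 in naive LECs (log2 change -1.12, limma adjusted p = 0.18). *Egr2*, a zinc finger factor, was at 9.68, 10.00 and 9.90 in tumor LECs and at 10.60, 11.01 and 10.73 in naive LECs (log2 change -0.92, limma adjusted p = 0.22). Both were separate between the groups without passing the test.

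Metabolic lists held 0 called genes, also near the share over all genes. Their medians were 0.19 for ribosome biogenesis (25 tested), 0.33 for sterol and fatty acid synthesis (24), 0.02 for glycolysis and hypoxia (28) and 0.12 for oxidative phosphorylation (30). Changes above 0 numbered 23, 19, 15 and 24 in the same order, against 6485 of 13057 over all genes. Ribosome biogenesis had medians of 0.61 in BECs, 0.69 in FRCs and 0.53 in DN cells. *Pkm*, the pyruvate kinase of dividing cells, averaged 13.79 ± 0.40 in tumor LECs and 12.98 ± 0.11 in naive LECs (SD, n = 3 each; limma adjusted p = 0.075). *Fdps*, a farnesyl diphosphate synthase of sterol synthesis, averaged 12.44 ± 0.30 in tumor LECs and 11.52 ± 0.08 in naive LECs (SD, n = 3 each; limma adjusted p = 0.15). *Cd276*, an immune checkpoint ligand, averaged 9.45 ± 1.05 in tumor LECs and 7.80 ± 0.23 in naive LECs (SD, n = 3 each; limma adjusted p = 0.056). In simulated data of the same size, 29 of 50 genes with a log2 change of 1 were called, and 7 of 50 with a log2 change of 0.5, so that small changes of these lists would mostly have been missed.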

How the data were processed

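RNA of sorted LN stromal cells was amplified, labelled with biotin and hybridised to Illumina mouse bead arrays, with 2 strips per replicate and 3 replicates in each of 8 groups (4 cell types, tumor and naive). The authors deposited a value table on the log2 scale, whose normalisation is not given in the sources used here, and bead-level files of intensity for each strip. The table held 45281 probes, and columns were matched to samples by title.

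The log2 values were quantile normalised over 48 strips, and the strips of a replicate, which are technical, were averaged. Probes with 1 gene symbol and at least 1 group mean above the background level (mode 4.99 plus 3 robust SDs of 0.21) were kept, and the brightest of them stood for its gene, which left 13057 genes. Limma (3.58.1 in R 4.3.3) was fitted to 8 group means over all 24 replicates (16 residual degrees of freedom). Tests were tumor minus naive in LECs, and that change minus the mean change of the other 3 cell types, both two-sided with Benjamini-Hochberg adjustment over all genes at 0.05. The pooled model gives every gene 1 SE for all cell types. This SE is large for genes that vary in other cells and may be too small for genes that are flat there but vary in LECs. In the 6 LEC replicates alone, 13 of the 34 calls of named genes did not pass. Among these, the limma adjusted p was 0.15 for *Scg5* and *Lrp2*, 0.12 for *Cadps* and 0.30 for *Cela3b*. The study names no test for its arrays, and the t-test it states for other data, called here the methods' t-test, was run as an alternative. Intensity values of the deposited bead files, after removal of beads beyond 3 median absolute deviations, served as alternatives. The number of beads and arrays limits the precision, and values near the background level or the top of the scale understate changes.

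Same-numbered tumor and naive LEC replicates deviated together from their group means (correlations 0.20, 0.23 and 0.15, other pairs -0.17 to -0.04). The main fit, which gives all counts and p-values where the block is not named, does not use this pairing. A fit with the replicate block takes the numbers as pairs and is given where it ends a call. The pairing comes from these data and not from the labels. The script was tested on simulated data: of 50 genes each with log2 changes of 0.5, 1, 2 and 3, it called 7, 29, 47 and 47, and 8 of 12857 unchanged genes.

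Genes named in the text were the 10 largest rises and falls among called genes without overlap between groups, up to 4 called members of each list or else the 2 of smallest p, the lymphatic markers, and up to 5 genes in each direction of the second test. Lists were described by counts and medians, with no set test. The members and lists were chosen with earlier results of these data known. Promoters came from RefSeq (GRCm38.p6). The files name no genome build for the probes, and no probe coordinates are given. Figures were drawn with matplotlib 3.10.9.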

Additional observations from a re-analysis of the deposited data

Results flagged for a closer look

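In 8 genes the change in tumor LECs differed from the mean change of BECs, FRCs and DN cells under the same contrast, by a limma test of the difference itself (adjusted p of 0.00080 to 0.013). For *Bmp2*, *Chrnb4* and *Myo18b* every group mean of the other cell types was below background, and *Serpina12* was below background in BECs, so there the other cells lacked a signal that could change. The LEC change exceeded that of the other cell types by 2.80 (log2) for *Adamtsl2*, 2.68 for *Adamtsl1*, 1.91 for *Flrt1*, 1.44 for *Gap43* and 1.35 for *Myo18b*. It lay below that of the other cell types by -1.16 for *Chrnb4*, -1.69 for *Bmp2* and -2.46 for *Serpina12*. In *Adamtsl1*, *Flrt1* and *Serpina12* a part of the difference came from FRCs, which changed by -1.41, -1.35 and 2.13.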

How the results depend on the processing

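All 104 higher and 18 lower genes kept their sign in each setting that measured them, and the bead files measured 99 of the 104. This was largely fixed in advance, since 103 of the 104 and 18 of the 18 had no overlap between the groups. Leaving out, weighting or blocking replicates cannot reverse such a sign. Counts of calls moved more. In the order higher, lower, LEC change above and LEC change below the other cell types (104, 18, 5 and 3), array weights gave 348, 187, 194 and 261. The replicate block gave 80, 5, 3 and 1, and the block in the 6 LEC replicates alone gave 162 higher and 31 lower genes. The block ended 11 of the 34 calls of named genes and 4 of the 8 differences, added *Cd209b* and *Cox7b*, and changed no other named call in the model of all groups. The second strip alone gave 6 lower, 3 above and 1 below, normexp background correction gave 3 above, and the values as deposited gave 5 below. The methods' t-test called 0 higher and 0 lower genes after adjustment (smallest adjusted p = 0.092), with 927 higher and 655 lower genes unadjusted.

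Leaving out 1 LEC replicate gave 10 to 138 higher, 1 to 49 lower, 4 to 32 above and 2 to 11 below. The fewest higher and lower genes were called without tumor replicate 2, the most without tumor replicate 1, and the 32 above without tumor replicate 3. As settings chosen after seeing the data, leaving out both replicates numbered 2 gave 4, 1, 0 and 0 with limma (271 above and 276 below at an unadjusted p below 0.05), and leaving out tumor replicates 1 and 2 gave 6, 1, 1 and 0 (251 below unadjusted), where the lone tumor replicate is assumed to vary like the other groups. Low signals near the background understate changes, as for *Gap43* and *Bmp2*.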

Other observations

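A limma model of the 6 LEC replicates alone, which takes the spread from LECs and not from all cell types, called 18 lower genes, of which 3 (*Bmp2*, *Tac1* and *Mmp13*) were also lower in the model of 8 groups and 15 were not called there. The genes below were chosen after their values were seen. *Fcgr2b*, the inhibitory Fc receptor that LN sinus LECs carry, was at 8.46, 7.65 and 8.41 in tumor LECs and at 9.90, 9.98 and 9.86 in naive LECs, a log2 change of -1.74 with an SE of 0.23 (adjusted p = 0.029) in LECs alone and of 0.78 (adjusted p = 0.52) in the model of 8 groups, both by limma. The 3 tumor values were all below the naive values. *Rgs4*, a regulator of G protein signalling, was at 11.48, 11.61 and 11.57 in tumor LECs and at 12.46, 12.62 and 12.45 in naive LECs (limma adjusted p = 0.029 in LECs alone and 0.62 in the model of 8 groups). *Procr*, the endothelial protein C receptor, was at 7.83, 7.69 and 7.96 in tumor LECs and at 8.60, 8.96 and 8.98 in naive LECs (limma adjusted p = 0.039 and 0.13). These groups were separate as well. In BECs, FRCs and DN cells the log2 change was 2.64, -0.90 and 2.06 for *Fcgr2b* and 0.03, 1.31 and -0.39 for *Rgs4*. For *Procr* it was -0.49, 0.54 and -0.69 in the same order.

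*Axin2*, a feedback inhibitor and target of Wnt signalling, was at 7.61, 7.23 and 7.77 in tumor LECs and at 8.49, 8.77 and 8.73 in naive LECs (limma adjusted p = 0.043 in LECs alone and 0.36 in the model of 8 groups). *Vasn*, a transmembrane protein that binds TGF-beta, was at 11.79, 11.66 and 11.62 in tumor LECs and at 12.66, 13.12 and 12.75 in naive LECs (limma adjusted p = 0.031 and 0.12). *Dnajb9*, a chaperone of the endoplasmic reticulum, was at 11.17, 11.23 and 11.15 in tumor LECs and at 11.91, 11.96 and 11.91 in naive LECs, the smallest of the 18 changes at -0.74 (limma adjusted p = 0.038 and 0.14). A small spread between LEC replicates is part of how these genes were called. The fall of *Axin2* was not particular to LECs, with a log2 change of -1.12 in LECs, -1.30 in BECs, -1.32 in FRCs and -1.38 in DN cells. In BECs, FRCs and DN cells the change was -0.76, 0.01 and -0.64 for *Vasn* and -0.84, -0.15 and -0.61 for *Dnajb9*.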
